A study of Homo sapiens with 6 samples.

Results

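AP-1 is a transcription factor built from pairs of basic leucine zipper proteins, and the genes described here are 10 that encode its subunits or close relatives: JUN, JUNB and JUND, FOS, FOSB, FOSL1 and FOSL2, ATF3, and the small Maf genes MAFF and MAFK. The rule names them by symbol and sets no threshold on measured values, though the set was put together with earlier results of these data known. Each is 1 of 60835 loci in the expression table, taken as the locus that holds an annotated transcript of that symbol, and all 10 passed the filter on low counts that kept 25025 loci. The cells were ARPE-19, an established human retinal pigment epithelium line labelled wild type, kept for 72 h in high glucose medium (3 libraries) or in normal glucose medium (3 libraries). No glucose concentration is labelled. Since nothing shows that replicate libraries were grown as separate cultures, the spread behind each p-value may be technical only. RNA was sequenced in bulk, so a change in the make-up of the culture and a change in RNA per cell cannot be told apart.

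JUN proteins can pair with each other or with a FOS protein, whereas FOS proteins need a partner, and both kinds of pair bind the AP-1 site in promoters and enhancers. FOS, FOSB, JUN, JUNB and ATF3 are immediate early genes, switched on within minutes to hours by serum, growth factors or stress through MAP kinases, while JUND is often expressed steadily. ATF3 is also a target of ATF4 in the integrated stress response, and MAFF and MAFK encode small Maf proteins, which lack a domain that activates transcription and pair with NRF2 and its relatives. In retinal pigment epithelium, as in other epithelia, AP-1 is known for driving matrix proteases, cytokines and adhesion genes.

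The promoter windows of 5 members are shown because these genes had the clearest changes or the largest spread between libraries. Each runs, 5′ to 3′ on the gene's strand, over 250 bases before and 50 after the start site in RefSeq (GRCh38.p14). They lie at chr1:58783998-58784297 on the minus strand for JUN, and on the plus strand at chr19:12791236-12791535 for JUNB, chr19:45467746-45468045 for FOSB, chr2:28392608-28392907 for FOSL2 and chr1:212565157-212565456 for the first of 2 ATF3 windows. Capitals mark a match to a motif searched for on both strands.
JUN: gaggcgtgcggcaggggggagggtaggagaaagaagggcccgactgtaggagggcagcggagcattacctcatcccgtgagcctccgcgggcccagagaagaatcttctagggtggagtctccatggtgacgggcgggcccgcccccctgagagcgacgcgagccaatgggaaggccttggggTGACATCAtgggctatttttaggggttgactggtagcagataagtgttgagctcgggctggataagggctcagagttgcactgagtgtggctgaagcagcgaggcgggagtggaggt
JUNB: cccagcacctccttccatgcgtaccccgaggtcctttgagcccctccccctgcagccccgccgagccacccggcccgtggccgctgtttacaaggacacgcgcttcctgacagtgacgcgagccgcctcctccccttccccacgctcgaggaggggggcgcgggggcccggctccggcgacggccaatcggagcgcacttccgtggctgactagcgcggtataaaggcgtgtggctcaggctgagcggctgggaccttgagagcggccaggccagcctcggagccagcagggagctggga
FOSB: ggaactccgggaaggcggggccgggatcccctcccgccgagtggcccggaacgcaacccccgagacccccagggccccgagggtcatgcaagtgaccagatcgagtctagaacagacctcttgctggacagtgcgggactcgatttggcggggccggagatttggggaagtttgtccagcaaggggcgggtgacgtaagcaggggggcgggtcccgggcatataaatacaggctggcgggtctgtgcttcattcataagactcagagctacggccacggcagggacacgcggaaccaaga
FOSL2: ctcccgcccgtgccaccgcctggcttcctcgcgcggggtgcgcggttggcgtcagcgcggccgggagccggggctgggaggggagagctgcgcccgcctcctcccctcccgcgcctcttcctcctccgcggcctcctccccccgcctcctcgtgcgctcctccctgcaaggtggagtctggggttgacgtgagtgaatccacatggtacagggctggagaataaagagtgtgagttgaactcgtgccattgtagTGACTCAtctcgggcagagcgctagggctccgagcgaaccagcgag
ATF3: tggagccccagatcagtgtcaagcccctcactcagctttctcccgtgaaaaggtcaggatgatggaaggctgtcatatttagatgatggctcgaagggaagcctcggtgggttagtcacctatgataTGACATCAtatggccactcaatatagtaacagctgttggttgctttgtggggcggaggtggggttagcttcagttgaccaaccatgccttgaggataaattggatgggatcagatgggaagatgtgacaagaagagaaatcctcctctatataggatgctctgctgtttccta

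The AP-1 site TGACTCA was found in the FOSL2 window, at position 4 after the start site, and in no other member's window. TGACATCA, the form of the site known from the JUN promoter, stood at position -67 in the JUN window and at position -123 in the first ATF3 window. The JUND window, at position -200, and the first of 2 MAFF windows, at position -54, held TGACGTCA, the cyclic AMP response element. Of the Maf recognition core TGCTGA there was 1 match, in the second ATF3 window, on the opposite strand at position -4. The FOS, FOSB and JUNB windows held none of these motifs, and no member's window held the serum response element, which says only that these letters were not in these windows. Among 34796 distinct promoter windows in the same RefSeq set, 4.96% held the AP-1 site, 1.84% the cyclic AMP response element, 17.3% the Maf recognition core, 2.6% TGACATCA or its reverse complement TGATGTCA, and 1.3% the serum response element. The search for TGACATCA was added after the windows had been read. Windows were found for 8 of the 10 members, FOSL1 and MAFK being the others.

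JUN and JUNB rose in high glucose, and MAFK and FOSB fell. No other member passed the test, which was edgeR's quasi-likelihood test at a Benjamini-Hochberg adjusted p under 0.05 over all tested loci, the sense in which "called", "rose" and "fell" are used here. Of the 10 members 4 (40%) were called, against 19.6% of all tested loci and 25.5% of those with a protein-coding transcript. By direction, 2 rose and 2 fell, while 9.75% of all tested loci rose and 9.86% fell. The members' median log2 change, high minus normal glucose, was -0.92, against -0.00 for all tested loci, and it was -0.55 without the second normal glucose library. In 6 members (JUN, JUNB, JUND, FOSB, ATF3 and MAFK) the 3 high glucose libraries did not overlap with the 3 normal glucose libraries, which was also the case for 42.3% of all tested loci. When the third normal glucose library was left out, 8 of the 10 members were called, 3 of which rose and 5 of which fell.

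**Figure D1:**
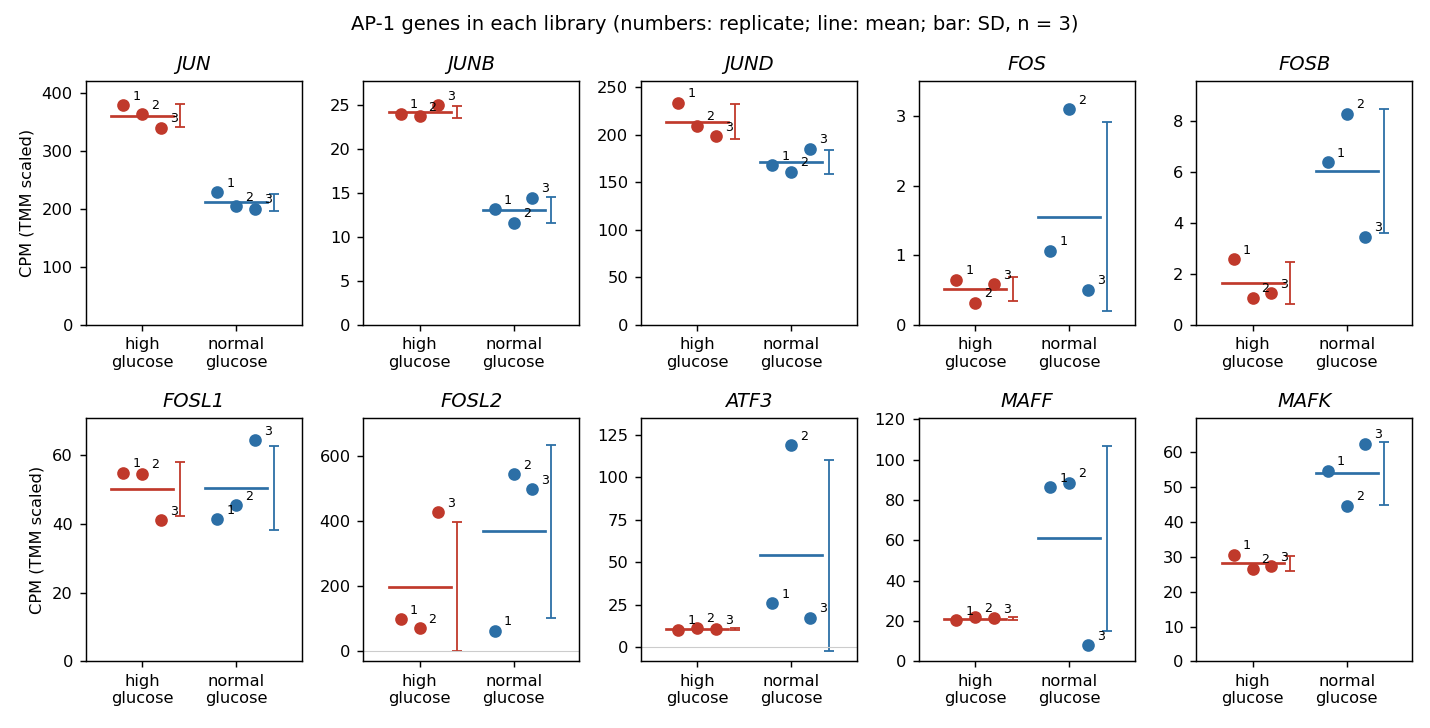
Level of each AP-1 gene in every library, as CPM (TMM scaled) on a linear axis, with high glucose left of normal glucose. Points are libraries with their replicate number, the line is the mean and the bar the SD (n = 3). JUN, JUNB, JUND, FOSB, ATF3 and MAFK separate the groups, whereas FOSL2 splits the libraries across both groups.

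JUN (chr1:58780791-58784047, minus strand), which encodes the subunit c-Jun, had 378.2, 363.1 and 339.8 CPM (counts scaled to library size) in the high glucose libraries, against 228.0, 204.1 and 200.1 CPM in the normal glucose libraries. Every high glucose library lay above every normal glucose library. Its log2 change was 0.77 (SE 0.10, adjusted p = 0.00532), a fold of 1.71 between means of 360.4 ± 19.3 CPM and 210.8 ± 15.1 CPM (SD, n = 3 each).

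JUNB (chr19:12791486-12793315, plus strand) encodes a subunit that can compete with c-Jun for partners. It had 24.05, 23.77 and 25.05 CPM in high glucose, against 13.16, 11.61 and 14.49 CPM in normal glucose. The groups did not overlap, and the log2 change was 0.89 (SE 0.13, adjusted p = 0.00746). The gene lies inside the span of a locus on the other strand that holds HOOK2 and RTBDN, and nothing states that counting used strand. That locus averaged 17.1 ± 0.11 CPM in high glucose and 15.7 ± 1.89 CPM in normal glucose, with a log2 change of 0.13 (adjusted p = 0.564).

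JUND, the JUN family member usually present in resting cells, shares its locus in the table with IQCN (chr19:18257097-18281622, minus strand), so its values belong to the joined locus. The locus had 234.0, 209.8 and 198.5 CPM in high glucose, against 168.2, 161.4 and 185.4 CPM in normal glucose. The groups did not overlap, but the log2 change of 0.32 (SE 0.11) did not pass the test (adjusted p = 0.0862). It passed when the third normal glucose library was left out (0.38, adjusted p = 0.0281).

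Per length, JUN had the highest mean of the members in both groups, although FOSL2 exceeded it in 2 of the 3 normal glucose libraries. On the FPKM scale it had 96.6, 91.5 and 85.6 in high glucose, against 56.2, 50.4 and 49.0 in normal glucose. Summed over the JUN family, FPKM came to 124.7, 117.4 and 111.2 in high glucose, against 73.9, 66.9 and 68.4 in normal glucose. The mean sums were 117.8 ± 6.77 and 69.7 ± 3.67 FPKM (SD, n = 3 each), a ratio of 1.69, and the 2-sided exact permutation p was 0.1, the smallest that 3 against 3 allows. JUN made up 77.5% ± 0.49 of that sum in high glucose and 74.4% ± 2.34 in normal glucose, while JUND's joined locus made up 13.2% ± 0.48 in high glucose and 17.4% ± 1.51 in normal glucose (SD, n = 3 each). The ratio of JUN to JUNB in FPKM was 8.84, 8.58 and 7.62 in high glucose, against 9.74, 9.88 and 7.76 in normal glucose, so the ranges overlapped.

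**Figure D2:**
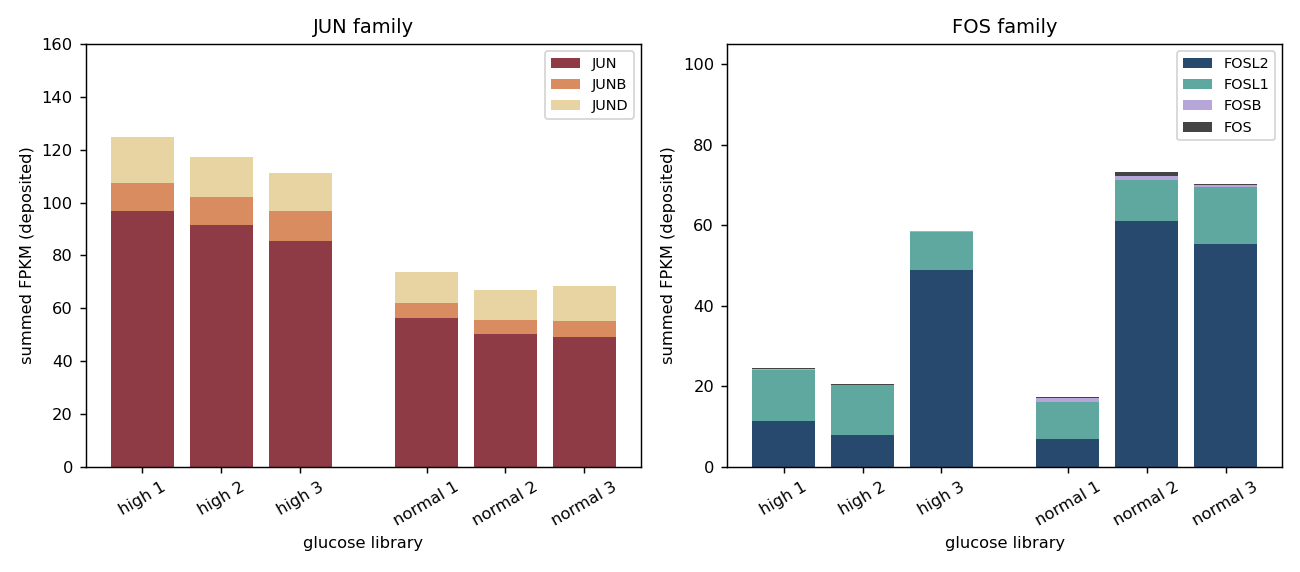
Deposited FPKM of the JUN family (left) and the FOS family (right) stacked by member in each library, with the 3 high glucose libraries left of the 3 normal glucose libraries. JUN takes most of its family's sum in all 6 libraries, and the FOS family's sum is high where FOSL2 is high: the third high glucose library and the second and the third normal glucose libraries.

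FOS and FOSB, the immediate early members of the FOS family, were the 2 least abundant members per length in both groups. FOSB (chr19:45467995-45475178, plus strand) had 2.57, 1.06 and 1.24 CPM in high glucose, against 6.37, 8.29 and 3.45 CPM in normal glucose. These values rest on 229, 93 and 102 counts in high glucose and on 551, 711 and 287 counts in normal glucose. The groups did not overlap, and FOSB fell with a log2 change of -1.89 (SE 0.45, adjusted p = 0.0286). That call was lost when the second or the third high glucose library or the first or second normal glucose library was left out (adjusted p = 0.0986, 0.102, 0.075 and 0.0825). The FOSB locus lies wholly within the span of ERCC1 on the other strand, which averaged 84.2 ± 2.85 CPM in high glucose and 93.2 ± 2.999 CPM in normal glucose (log2 change -0.15, adjusted p = 0.311).

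FOS (chr14:75278826-75281636, plus strand), the gene of c-Fos, had 0.65, 0.32 and 0.58 CPM in high glucose, against 1.06, 3.10 and 0.51 CPM in normal glucose. The ranges overlapped, since the third normal glucose library lay below 2 of the high glucose libraries. The log2 change was -1.59 (SE 0.67, adjusted p = 0.142). Without the third normal glucose library it was -2.01 and passed the test (adjusted p = 0.0362), and without the second normal glucose library, which held 266 counts, it was -0.60.

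FOSL1 (chr11:65891639-65900573, minus strand), which encodes FRA-1, a subunit linked to migration and invasion in tumour cells, had 55.0, 54.6 and 41.2 CPM in high glucose, against 41.4, 45.5 and 64.4 CPM in normal glucose. The groups covered nearly the same range, with means of 50.3 ± 7.85 and 50.4 ± 12.2 CPM (SD, n = 3 each). Its log2 change was -0.01 (SE 0.20, adjusted p = 0.99), and its sign turned in 7 of 16 alternative settings.

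FOSL2 (chr2:28392448-28417312, plus strand), the gene of FRA-2, was by its mean the second most abundant member per length in both groups. It had 97.9, 68.9 and 427.4 CPM in high glucose, against 62.4, 543.8 and 497.5 CPM in normal glucose. The third high glucose library and the second and the third normal glucose libraries were several times higher than the other 3, a split that did not follow the groups. The log2 change was -0.89 (SE 0.91, adjusted p = 0.536), and it moved between -2.14 and -0.49 as single libraries were left out, with no call.

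The spread of FOSL2, picked out after its values were seen, was wide for a gene at its level. Its coefficient of variation was 100.5% in high glucose and 72.2% in normal glucose. Among 2337 tested loci with a mean of at least 100 CPM, the median coefficient of variation was 4.44% in high glucose and 13.7% in normal glucose, and 3 loci (0.128%), FOSL2 among them, varied at least as much as FOSL2 in both groups. A locus without an annotated transcript, which the table also names FOSL2, starts 131 bases beyond the gene's end. It had 3.65, 18.8 and 17.9 CPM in high glucose, against 8.17, 5.23 and 7.77 CPM in normal glucose, so of its 2 highest libraries 1, the third high glucose library, was among those in which the gene itself was high. What set the libraries apart at FOSL2 was not tested.

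Because of FOSL2, the summed FPKM of the FOS family ranged widely, at 24.5, 20.5 and 58.6 in high glucose, against 17.3, 73.1 and 70.2 in normal glucose (2-sided exact permutation p = 0.4). Without FOSL2, an alternative chosen after the data were seen, the sum was 11.8 ± 1.89 FPKM in high glucose and 12.4 ± 2.24 FPKM in normal glucose (SD, n = 3 each, exact permutation p = 0.8). FOSL1 and FOSL2 together held most of the family's sum in every library, FOSL1 taking 51.5%, 60.4% and 15.9% in high glucose and 52.9%, 13.8% and 20.2% in normal glucose. FOS and FOSB together came to 0.54, 0.23 and 0.33 FPKM in high glucose, against 1.17, 1.97 and 0.61 FPKM in normal glucose. Those 2 ranges did not overlap, and the exact permutation p of 0.1 is again the smallest possible.

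ATF3 (chr1:212565334-212620772, plus strand), a stress-induced factor that often represses its targets, had 10.3, 11.4 and 10.5 CPM in high glucose, against 25.7, 119.0 and 17.3 CPM in normal glucose. The high glucose libraries were nearly equal and all lay below the normal glucose libraries, of which the second stood far above the other two. The log2 change was -2.33 (SE 0.69) and missed the threshold (adjusted p = 0.0553). It was -1.004 without the second normal glucose library and -2.76 without the third, and both omissions gave a call (adjusted p = 0.0337 and 0.0156). DESeq2 also called it (adjusted p = 0.000827). Of 16 alternatives 6 called ATF3 and 10 did not. Those without a call included the omission of each single high glucose library (adjusted p = 0.147 to 0.152) and the replicate block (adjusted p = 0.0944).

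MAFK (chr7:1530702-1543043, plus strand) had 30.6, 26.5 and 27.4 CPM in high glucose, against 54.6, 44.6 and 62.4 CPM in normal glucose. The groups did not overlap, and MAFK fell with a log2 change of -0.94 (SE 0.15, adjusted p = 0.00883). Its end overlaps TMEM184A on the other strand by 809 bases, and TMEM184A, a membrane protein gene, rose (log2 change 0.89, adjusted p = 0.0277).

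MAFF (chr22:38200767-38216507, plus strand) had 20.3, 22.0 and 21.3 CPM in high glucose, against 86.4, 88.5 and 7.997 CPM in normal glucose. The first and second normal glucose libraries were the highest of all and the third was the lowest of all. The log2 change of -1.52 (SE 0.73) did not pass the test (adjusted p = 0.191), and without the third normal glucose library it was -2.04 with an adjusted p of 0.000153. NFE2L2, the gene of the small Maf partner NRF2, was counted in a joined locus with AC019080. That locus had 149.6, 149.0 and 146.7 CPM in high glucose, against 262.9, 284.9 and 50.3 CPM in normal glucose. It was not called (adjusted p = 0.63), the third normal glucose library was also the lowest of the 6, and it was picked out after its values were seen.

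**Figure D3:**
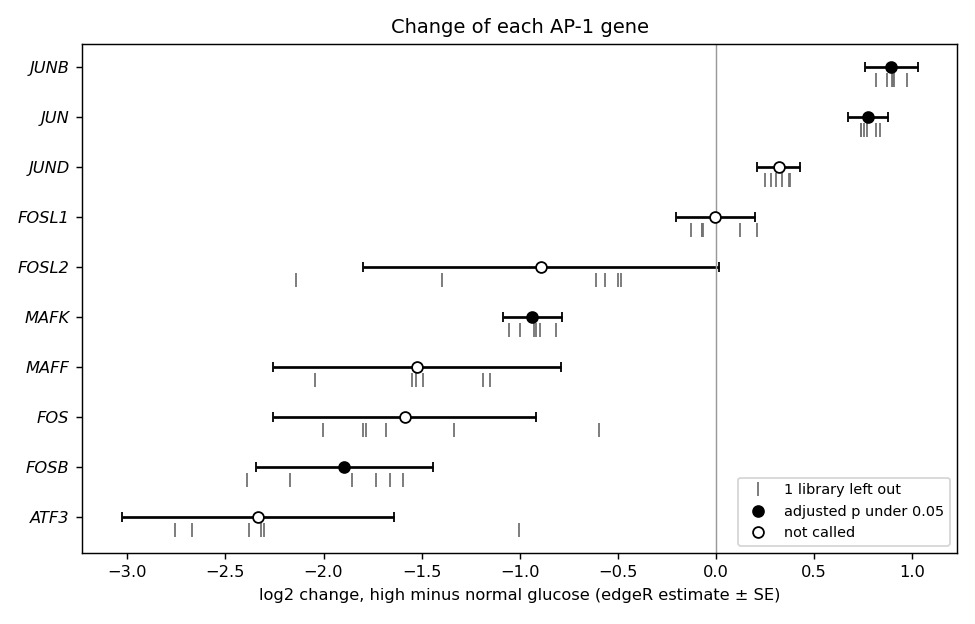
Log2 change of each AP-1 gene, high minus normal glucose, as edgeR's estimate with its SE. Filled circles passed an adjusted p under 0.05, open circles did not, and grey ticks give the estimate with 1 library left out. The ticks lie close to the estimate for JUN, JUNB, JUND and MAFK and far apart for FOSL2, ATF3 and FOS.

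The third normal glucose library stood apart from the other two over the whole transcriptome. The libraries held 81616741 to 87748820 counts. The first principal component (49.7% of the variance) separated the groups, and the second (18.0%) placed the third normal glucose library at 107.1 and the first and second at -44.1 and -35.2. The biological coefficient of variation was 27.2% among high glucose libraries and 41.0% among normal glucose libraries. Calls over all tested loci came to 7594 without that library and to as few as 1563 without the second high glucose library, against 4906 with all 6.

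By FPKM, the order of the members in high glucose was JUN (91.2 ± 5.52), FOSL2 (22.7 ± 22.8), JUND's joined locus (15.6 ± 1.44), FOSL1 (11.4 ± 1.84), JUNB (10.9 ± 0.28), MAFK (3.64 ± 0.31), MAFF (3.11 ± 0.10), ATF3 (2.18 ± 0.11), FOSB (0.24 ± 0.12) and FOS (0.13 ± 0.05; SD, n = 3 each). The gap between FOSL1 and JUNB was smaller than the SD of FOSL1, the gap between FOSB and FOS was smaller than the SD of FOSB, and FOSL2 could not be placed, since its libraries reached from below JUNB to above JUND. In normal glucose JUN (51.9 ± 3.82), FOSL2 (41.1 ± 29.7), JUND's joined locus (12.1 ± 0.82) and FOSL1 (11.2 ± 2.66) had the 4 highest means. FOSL2 could not be placed there either, since its libraries reached from 6.99, below every FOSL1 library, to 61.0, above every JUN library, and the gap between JUND's locus and FOSL1 was smaller than the SD of FOSL1. There JUNB came eighth (5.73 ± 0.61), behind ATF3 (10.7 ± 11.2), MAFF (8.73 ± 6.58) and MAFK (6.78 ± 1.10), and the places of ATF3 and MAFF lie within their spread.

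Loci within 15000 bases of each member were also read. Near JUN, the long noncoding RNA LINC01135 starts 1080 bases away on the plus strand, pointing away from JUN (chr1:58785128-58901109). It had 1.24, 1.98 and 0.91 CPM in high glucose, against 0.35, 0.35 and 0.61 CPM in normal glucose. The groups did not overlap, as at JUN, and it rose with a log2 change of 1.66 (SE 0.42, adjusted p = 0.0334), a call that held in 1 of 6 omissions of a library, that of the third normal glucose library. A long noncoding RNA named AC104695 that starts 8632 bases beyond FOSL2 had 4.596, 4.27 and 3.28 CPM in high glucose, against 0.55, 1.24 and 1.19 CPM in normal glucose (log2 change 2.03, adjusted p = 0.0111), and so followed the groups where FOSL2 did not. Both were picked out after their values were seen.

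Profiles over the 6 libraries were compared with each called member's, by Pearson r of log2 CPM, among 10684 named protein-coding genes. Genes in the lists, joined loci and symbols of clone, noncoding or pseudogene form were left out. The most alike genes were ZNF589 (0.997) and KCNA2 (0.998) for JUN and PFKL (0.999) and PTPN1 (0.999) for JUNB. For MAFK they were TANC1 (0.996) and RGS9 (0.995), and for FOSB COL14A1 (0.997) and EIF3F (0.994). These values are a description only, over 6 libraries that fall into 2 groups. KCNA2 and COL14A1 were not called (adjusted p = 0.227 and 0.0501).

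Other basic leucine zipper genes, which can pair with AP-1 proteins or belong to the ATF, CREB, C/EBP and Maf families, had more calls down than up. Of 37 tested, 2 rose and 11 fell (35.1% called, against 19.6% of all tested loci and 25.5% of protein-coding ones). The list's median log2 change was -0.40, and -0.18 without the second normal glucose library. NFE2L3, a relative of NRF2, rose to 98.2 ± 4.999 CPM in high glucose, against 41.7 ± 3.34 CPM in normal glucose (SD, n = 3 each; log2 change 1.24, adjusted p = 0.00228). CEBPG, a dimer partner of ATF4, fell to 29.7 ± 0.27 CPM in high glucose, against 152.9 ± 51.5 CPM in normal glucose (log2 change -2.36, adjusted p = 0.00315). The stress response factor ATF4 (-1.09), the CREB relative ATF1 (-0.96) and the repressor NFIL3 (-2.90) also fell, and CREB3, an endoplasmic reticulum membrane factor, rose (0.38, a call kept in 2 of 6 omissions of a library).

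Beyond those named by rule, 2 genes were picked out for their link to the members. MAFG, the other small Maf gene, in a joined locus with SIRT7, had 62.3, 69.9 and 66.7 CPM in high glucose, against 203.2, 207.0 and 117.9 CPM in normal glucose, and fell (log2 change -1.41, adjusted p = 0.00808). DDIT3, the gene of CHOP, in a joined locus with AC022506, had 12.6, 13.2 and 7.20 CPM in high glucose, against 265.5, 366.2 and 33.04 CPM in normal glucose, and fell (-4.33, adjusted p = 0.0148), a call lost in the omission of any 1 high glucose library. In DDIT3 as in MAFF, ATF3 and MAFG, the third normal glucose library was the lowest of its group, a likeness picked out after the values were seen. That library was also the lowest of its group in JUN, FOS and FOSB. In MAFK, also a small Maf gene, and in FOSL1, JUNB and JUND's joined locus it was the highest of its group. Calls in the list ranged between 6 without the second high glucose library and 18 without the third normal glucose library.

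Upstream of AP-1, the kinases of the ERK, JNK and p38 cascades and the SRF factors held 2 genes that rose and 8 that fell among 37 tested (27% called, median log2 change -0.23). That share was near the 25.5% called among protein-coding loci. MAP2K2, which encodes the ERK kinase MEK2, had 130.3, 122.6 and 121.4 CPM in high glucose, against 226.1, 250.9 and 208.1 CPM in normal glucose, and fell without overlap (-0.87, adjusted p = 0.00448). RPS6KA5, the gene of the kinase MSK1, fell (-2.42), as did MAP2K6, a p38 kinase kinase (-2.77, at under 4 CPM in every library), and MAP3K8 (-0.86, kept in 2 of 6 omissions). MAPK11, a p38 isoform, had 6.20, 4.59 and 9.34 CPM in high glucose, against 1.59, 2.20 and 2.51 CPM in normal glucose, and rose (1.67, adjusted p = 0.0147). SRF, the factor that binds the serum response element, rose to 77.0 ± 2.75 CPM in high glucose, against 56.2 ± 5.57 CPM in normal glucose (0.45, adjusted p = 0.0307), a call kept in 1 of 6 omissions.

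The JNK genes MAPK8 and MAPK9, whose kinases phosphorylate c-Jun, were picked out afterwards. MAPK8 averaged 26.2 ± 1.07 CPM in high glucose and 35.7 ± 3.43 CPM in normal glucose (log2 change -0.45, adjusted p = 0.0408). MAPK9 averaged 43.8 ± 0.32 CPM in high glucose and 58.9 ± 4.92 CPM in normal glucose (-0.43, adjusted p = 0.0334). Both fell, though these calls held in 2 and 1 of the 6 omissions of a library. The whole list gave 4 calls in the omission of any 1 high glucose library or of the second normal glucose library, 6 without the first and 19 without the third.

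Other immediate early genes moved in both directions: of 35 tested, 6 rose and 9 fell (42.9% called, against 25.5% of protein-coding loci; median log2 change -0.27, which was 0.02 without the second normal glucose library). IER2, a nuclear protein gene induced with FOS and JUN, had 29.3, 28.7 and 15.7 CPM in high glucose, against 2.29, 3.37 and 3.85 CPM in normal glucose. It rose without overlap, with a log2 change of 2.96 (SE 0.32, adjusted p = 0.00307). ZFP36L1, which promotes decay of messenger RNAs, rose (1.51, adjusted p = 0.00673), as did TRIB1 (1.07) and KLF10 (1.77). EGR1, picked out because it is induced beside FOS, had 3.36, 4.01 and 3.48 CPM in high glucose, against 1.07, 2.33 and 1.19 CPM in normal glucose, and rose (1.24, adjusted p = 0.0417), a call kept in 1 of 6 omissions.

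Among those that fell, KLF4, an epithelial transcription factor, had 5.28 ± 0.32 CPM in high glucose and 22.5 ± 4.29 CPM in normal glucose (-2.09, adjusted p = 0.0021). IER3, a stress-induced regulator of cell survival, had 105.5 ± 1.33 CPM in high glucose and 317.6 ± 57.4 CPM in normal glucose (-1.59, adjusted p = 0.00234). The ERK phosphatase gene DUSP5 (-0.95) and IER5 (-1.04, kept in 4 of 6 omissions) fell too. Calls in the list ranged between 7 without the third high glucose library and 17 without the third normal glucose library.

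Of 38 tested genes known as AP-1 targets, 10 rose and 3 fell (34.2% called, against 25.5% of protein-coding loci). Their median log2 change was 0.35, with 0.23 without the second and 0.65 without the third normal glucose library. The integrin gene ITGA5 had 573.0, 630.3 and 625.9 CPM in high glucose, against 262.7, 257.5 and 288.4 CPM in normal glucose, and rose without overlap (1.18, adjusted p = 0.00213). LAMB3, a laminin chain counted in a joined locus with MIR4260, rose (1.10, adjusted p = 0.00213), as did the cytokine gene LIF (1.62) and PLAUR, the urokinase receptor (1.14). MMP3, a matrix protease and a classic AP-1 target picked out here, had 3.26, 2.75 and 3.44 CPM in high glucose, against 0.81, 0.69 and 1.40 CPM in normal glucose, and rose (1.71). Of the list's other MMP genes, MMP14 rose (0.84), while MMP1 (-1.18), MMP2 (0.37) and MMP10 (0.04) were not called. MMP9 and MMP13 were not tested.

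HMOX1, heme oxygenase 1, had 15.2, 15.4 and 15.9 CPM in high glucose, against 431.2, 727.5 and 39.1 CPM in normal glucose, and fell (-4.69, adjusted p = 0.0169). It is also an NRF2 and Maf target, and the third normal glucose library was again the lowest of its group. The growth factor gene AREG, at under 2 CPM in every library, fell (-2.34), and so did HMGA1, a chromatin protein gene (-0.67, adjusted p = 0.0469). None of these 3 falls was called in the omission of any 1 high glucose library. Calls in the list ranged between 7 without the first or the third high glucose library and 21 without the third normal glucose library.

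**Figure D4:**
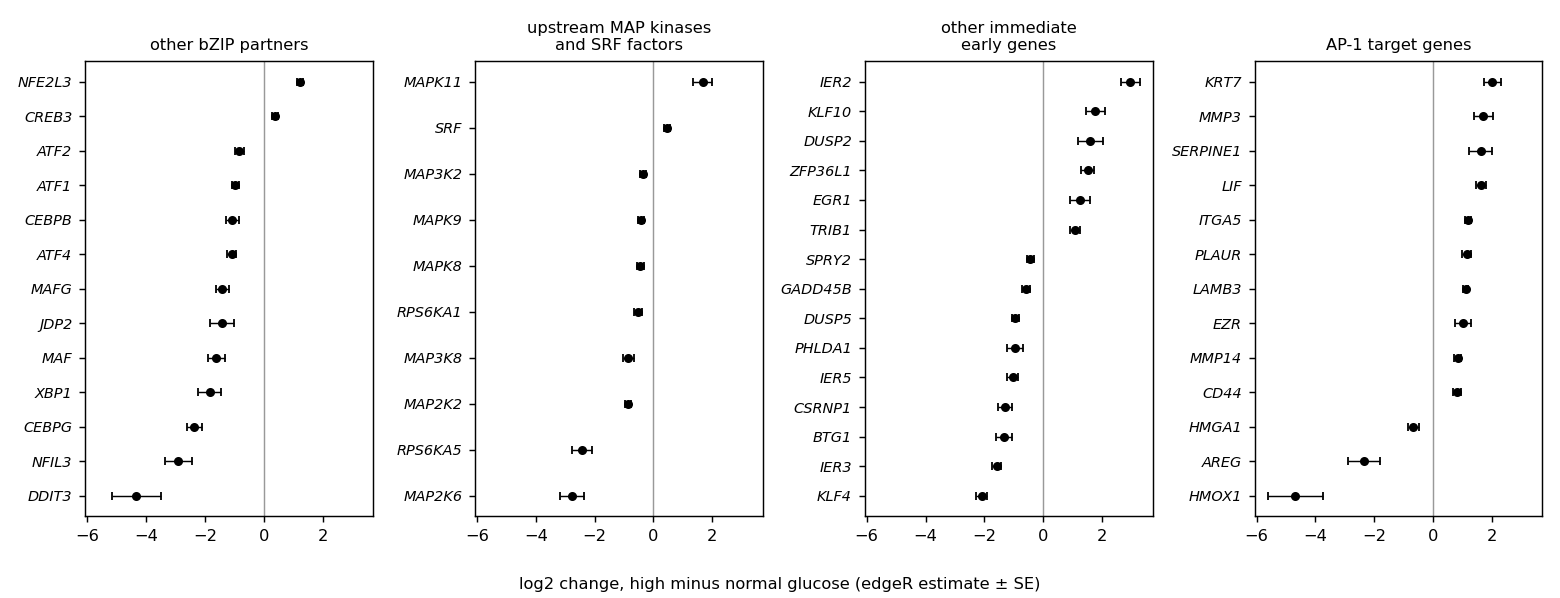
Log2 change, high minus normal glucose, of the called genes in 4 lists, as edgeR's estimates with their SEs: other basic leucine zipper partners, upstream MAP kinases with SRF factors, other immediate early genes and AP-1 target genes. Points right of 0 were higher in high glucose; most called zipper and kinase genes lie left of 0 and most called target genes right of it.

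Markers bear on what the cultures held. The visual cycle enzyme gene RPE65, a defining marker of retinal pigment epithelium, reached at most 0.046 CPM in any library, 5 of 16 such markers stayed below 1 CPM throughout, and BEST1 fell (-2.21, kept in 4 of 6 omissions). Of 11 tested, 3 were called (27.3%, against 25.5% of protein-coding loci). OTX2 (means of 43.0 CPM in high and 38.6 CPM in normal glucose), PAX6 (47.4 and 48.5 CPM) and MITF (49.8 and 83.1 CPM) were expressed and not called. The summed level of the 16 was 2248 to 2377 CPM in high glucose and 639 to 1192 CPM in normal glucose, mostly the keratins KRT8 and KRT18, both of which rose (1.66 and 1.88); the call of KRT8 was kept in 2 of 6 omissions of a library and that of KRT18 in all 6. The 10 fibroblast markers summed to 255 to 260 CPM in high glucose and 199.9 to 317.7 CPM in normal glucose. Among them PDGFRB rose (0.68), COL1A1 (-2.49) and TWIST1 (-0.89) fell, and PDGFRA was counted in a joined locus with FIP1L1 and AC058822. The 6 endothelial markers summed to 3.34 to 4.70 CPM in high glucose and 10.9 to 17.3 CPM in normal glucose. The largest part was KDR, which fell (-2.41), and 4 of the 6 stayed below 1 CPM throughout. The defining endothelial and leukocyte markers PECAM1 and PTPRC stayed below 1 CPM in every library. Of 6 leukocyte markers 5 did so, and the list's sum, 427.1 to 543.9 CPM in high glucose and 343.4 to 474.2 CPM in normal glucose, came from CD68, counted in a joined locus with EIF4A1 and SENP3. ITGAM, below 1 CPM throughout, rose (4.22, adjusted p = 0.0451), on 27, 31 and 24 counts in high glucose, against 0, 4 and 0 counts in normal glucose. The 6 neuron and photoreceptor markers summed to 13.7 to 22.3 CPM in high glucose and 6.37 to 7.73 CPM in normal glucose, mostly PDE6B, which rose (1.31). The part of these shifts in the members' changes was not tested.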

How the data were processed

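Bulk RNA of 6 ARPE-19 libraries was analysed from 1 table of 60835 loci. Per the file headers it gives raw counts, deposited as whole numbers, and FPKM, in which the authors corrected each value for length and depth. Bowtie 0.12.2 and mm8, a mouse build, appear in the submitters' processing notes, but the deposited names and coordinates are human; the build is not named, and all 10 member loci overlap their GRCh38.p14 positions in RefSeq. Neither a counting tool nor the use of strand is given in the sources used here. Some loci come from transcript assembly and may join neighbouring genes. No per-sample column was left unmapped (0).

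Counts were filtered with filterByExpr (25025 loci kept), scaled by TMM and tested with edgeR 4.0.16 (high minus normal glucose, glmQLFit, glmQLFTest, 2-sided, group as the only term, Benjamini-Hochberg, R 4.3.3). SE was derived from the estimate and its F statistic. CPM is the deposited count scaled to the TMM library size. Libraries held 81616741 to 87748820 counts. Alternatives were DESeq2 1.42.0, limma 3.58.1 with voom or on log2(FPKM + 1) and log2(FPKM + 0.1), other scalings and filters, counts divided by 4, a replicate block and the omission of each library. Sums of FPKM were tested with an exact permutation test. The edgeR step was tested on simulated data.

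The members and gene lists were chosen with earlier results of these data known. Named genes are all members, up to 4 called genes in each direction per list by smallest adjusted p, and 6 defining markers. The 2 genes outside the lists most like each called member are named too. Overlapping loci are described above for JUNB, FOSB and MAFK. On the other strand, CCDC85B overlaps FOSL1 by 408 bases (50.9 CPM in high and 39.1 CPM in normal glucose, adjusted p = 0.063). PLA2G6 overlaps MAFF by 14012 bases, also on the other strand (adjusted p = 0.862). FLJ31356 and a locus named AC104695 overlap FOSL2 by 2225 and 296 bases (adjusted p = 0.21 and 0.429). Other genes were picked out with their values known.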

Additional observations from a re-analysis of the deposited data

How the results depend on the processing

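JUN, JUNB and MAFK were called in all 16 alternatives run for each (log2 changes of 0.74 to 0.83, 0.82 to 0.97 and -1.05 to -0.74). The number of members called was 4 with the replicate block and 5 with DESeq2, and 3 to 8 with 1 library left out. FOSL1 turned positive with upper quartile scaling (0.0096), voom (0.0123), FPKM with a pseudocount of 1 (0.0448) or 0.1 (0.0491), the replicate block (0.0115), and without the third high glucose library (0.12) or the third normal glucose library (0.21; range over omissions -0.13 to 0.21). FOS could not be tested under the filter at 1 CPM. With FPKM and a pseudocount of 1, the median log2 change was -0.42 for the members, -0.11 for other zipper genes, -0.14 for upstream genes and -0.02 for immediate early genes. With a pseudocount of 0.1 it was -0.22 for other zipper genes and -0.17 for immediate early genes, which had -0.15 under the filter at 1 CPM and with counts divided by 4.

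Same-numbered libraries did not deviate together by much (correlations of -0.02, -0.00 and -0.01). A weak link between them could go unseen with 3 libraries per group. The labels name no pairing, so none was assumed. With the replicate block 2545 loci and 4 upstream kinase and SRF genes were called, and no member's call changed. With 1 library left out, calls ranged over 1563 to 7594 loci, 6 to 18 other zipper genes, 4 to 19 upstream genes, 7 to 17 immediate early genes and 7 to 21 targets. An arm left with 2 libraries is assumed to vary like the other. JUN's share of its family in CPM was 60.2% in high glucose and 53.3% in normal glucose. The FOS family's difference, -19.0 FPKM, was -0.59 without FOSL2. The cause of these shifts was not tested.

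Among the other genes named, the calls of COL1A1, TWIST1, PDGFRB, KDR, ITGAM, PDE6B, MMP14, TMEM184A and the AC104695 RNA beyond FOSL2 were not followed over the omissions. Of the calls followed, those of CREB3, SRF, MAPK11, MAP3K8, MAPK8, MAPK9, EGR1 and IER5 were lost in at least 1 omission. So were those of DDIT3, MMP3, HMOX1, AREG, HMGA1, LINC01135, KRT8 and BEST1. FOS, FOSB, AREG, MAP2K6, EGR1, MMP3, MAPK11, LINC01135 and the AC104695 RNA beyond FOSL2, among others, rest on low counts.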
